A study of Mus musculus with 6 samples.

Results

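The tachykinins are a family of short neuropeptides, and the neurokinin receptors are the G protein-coupled receptors through which they act. The genes described here are Tac1, Tac2, Tacr1 and Tacr3, 4 of the 18193 genes the array names. They are read by every probe set of the array that is annotated to exactly 1 of these 4 symbols, which gave 7 of the 45037 probe sets other than array controls. A probe set is a group of short probes that reads 1 transcript sequence. Tac1 had 2 probe sets, Tac2 had 1, Tacr1 had 1 and Tacr3 had 3.

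Tac1 encodes the precursor from which substance P and neurokinin A are cut, and Tac2 the precursor of neurokinin B. Tacr1 encodes the receptor that prefers substance P, and Tacr3 the receptor that prefers neurokinin B. Both receptors work mainly through Gq, phospholipase C and release of calcium inside the cell. In the forebrain Tac1 is known from striatal neurons of the direct pathway and from some cortical interneurons, and neurokinin B and its receptor are known for a part in fear memory in the amygdala.

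The tissue was the medial prefrontal cortex of both hemispheres of 6 mice, all male, 8 to 10 weeks old and of the strain 129S1/SvImJ, an inbred line. It was taken 2 h after the end of fear extinction training. All 6 mice went through that training, so no untrained group enters any value here. A control diet was given to mice 1, 5 and 9, and a diet labelled ZnR, described as a zinc diet, to mice 3, 7 and 11. The labels used here do not say what the ZnR diet contained. Total RNA of every mouse was read on an Affymetrix Mouse430_2 array of its own, values are log2 expression values, and differences are ZnR minus control. The comparison asks how these transcripts differ in the prefrontal cortex of mice on the 2 diets after extinction, and the precision of each answer is limited by the number of arrays.

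The arrays had medians of 4.46 to 4.52 log2 units. The 18S ribosomal RNA controls averaged 8.44 on the array of ZnR mouse 3 and 9.09 on that of control mouse 1, but 10.9 to 12.4 on the other 4 arrays, so values within this pair and between the other mice are given beside the results. Of 25381 probe sets tested, 373 passed the threshold of an adjusted p of 0.05 (1.47%), of which 117 were higher (0.461%) and 256 lower (1.01%) in ZnR mice. Markers of cortical excitatory neurons stood at a list mean of 9.04 to 9.16 in controls and 8.04 to 8.24 in ZnR mice. Genes that striatum is known for were also measured in every mouse, with Drd1 between 10.31 and 11.20 and Penk between 12.68 and 13.41. Whether these transcripts came from striatal tissue was not tested.

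Of the 4 genes, Tacr3 was higher in ZnR mice, while Tac1 and Tac2 did not pass the test and Tacr1 lay below the level at which probe sets were tested. A probe set was tested if it read above a log2 level of 4 on 3 or more arrays, which 4 of the 7 did. Of these 4, both Tacr3 probe sets passed as higher, against 0.461% of all probe sets tested that passed in this direction. Of the 7, these 2 alone had diets whose mice did not overlap. Among all probe sets tested 13.1% had no overlap with ZnR higher, and 10.6% with ZnR lower.

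**Figure D1:**
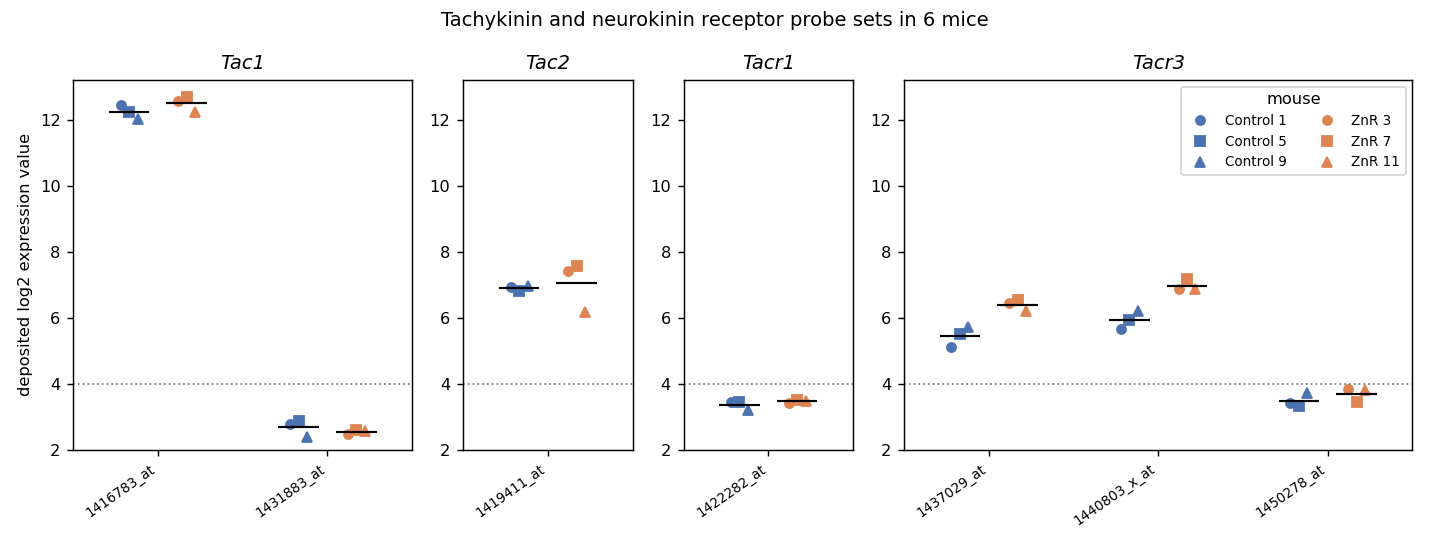
Deposited log2 expression value (vertical axis) of each of the 7 probe sets of Tac1, Tac2, Tacr1 and Tacr3 (horizontal axis) in 3 control mice (blue) and 3 ZnR mice (orange), with a symbol for each mouse and a black line at each group mean. The dotted line marks the log2 level of 4 used as a filter. The 1437029_at and 1440803_x_at probe sets of Tacr3 have all ZnR mice above all control mice, and Tac2 has ZnR mouse 11 below every other mouse.

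The substance P precursor gene Tac1 was read well above the filter by probe set 1416783_at. Its log2 values were 12.43, 12.22 and 12.02 in control mice 1, 5 and 9, and 12.57, 12.67 and 12.22 in ZnR mice 3, 7 and 11. Control mouse 1 lay above ZnR mouse 11, so the groups overlapped. The means were 12.22 ± 0.21 in controls and 12.49 ± 0.23 in ZnR mice (SD, n = 3 each), a log2 difference of 0.26 ± 0.15 (moderated SE) that did not pass (limma adjusted p = 0.432). The 95% interval of this difference ran from -0.09 to 0.62. A rise of the size measured for Tacr3 lies outside it, while no change, a fall of up to 0.09 and a rise of up to 0.62 lie within it. The low-18S pair differed by 0.14 and the other mice by 0.33. The difference fell to 0.16 without control mouse 9 and to 0.17 without ZnR mouse 7, and with 1 mouse fewer it passed in 0 of 6 fits (adjusted p from 0.285 to 0.682).

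The other Tac1 probe set, 1431883_at, lay near the floor of the array, between 2.38 and 2.87 in all 6 mice. It was not tested for that reason, and its means of 2.68 ± 0.26 and 2.54 ± 0.05 (SD, n = 3 each) differed in the opposite direction from the brighter probe set.

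The neurokinin B precursor gene Tac2 had 1 probe set, 1419411_at. The controls were close to each other, at 6.93, 6.79 and 6.95 in mice 1, 5 and 9. The ZnR mice were spread more widely, at 7.41 and 7.55 in mice 3 and 7 and 6.16 in mouse 11. ZnR mice 3 and 7 were thus above every control, and ZnR mouse 11 below every control. The SD was 0.77 in ZnR mice against 0.08 in controls, and the means of 7.04 and 6.89 differed by 0.15 ± 0.33 (moderated SE, 95% interval -0.63 to 0.93, limma adjusted p = 0.869).

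The direction for Tac2 depended on single mice. The difference was 0.59 without ZnR mouse 11 (adjusted p = 0.101), -0.11 without ZnR mouse 7 and -0.03 without ZnR mouse 3. The low-18S pair differed by 0.48 and the other mice by -0.02. The difference moved to 0.10 without control mouse 5. No direction can be given for Tac2 from these 6 mice. ZnR mouse 11 was also the lowest of the ZnR mice for Tac1 and for Pdyn, the precursor gene of the dynorphin opioid peptides (7.88 against 8.63 and 8.70).

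The substance P receptor gene Tacr1 was not read above the filter. Its probe set 1422282_at gave 3.45, 3.43 and 3.20 in control mice 1, 5 and 9, and 3.42, 3.51 and 3.46 in ZnR mice 3, 7 and 11. All 6 values lay within a narrow range near the floor, and the groups overlapped. The means were 3.36 ± 0.14 and 3.46 ± 0.05 (SD, n = 3 each), a difference of 0.10 that had an adjusted p of 0.760 when all probe sets were tested with no filter in limma. At this level the array gives no measure of how Tacr1 compares between the diets. Of the related genes outside the 4, Tacr2, which encodes the receptor that prefers neurokinin A, lay between 3.02 and 3.35, and Tac4, the hemokinin precursor gene, between 2.29 and 2.74, each with 1 probe set below the filter.

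The neurokinin B receptor gene Tacr3 rose in ZnR mice on both of its probe sets above the filter. On 1440803_x_at, the brighter of them, the values were 5.64, 5.94 and 6.19 in control mice 1, 5 and 9, and 6.87, 7.17 and 6.86 in ZnR mice 3, 7 and 11. Every ZnR mouse lay above every control, and the gap between the highest control and the lowest ZnR mouse was 0.67 log2 units. The means were 5.92 ± 0.27 in controls and 6.96 ± 0.17 in ZnR mice (SD, n = 3 each), a 2.06-fold rise (log2 difference 1.04 ± 0.16 moderated SE, 95% interval 0.68 to 1.40, limma adjusted p = 0.0308).

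On 1437029_at the control values were 5.12, 5.50 and 5.71 in mice 1, 5 and 9, and the ZnR values 6.43, 6.52 and 6.21 in mice 3, 7 and 11. These groups did not overlap either, with a gap of 0.50. The means of 5.44 ± 0.30 and 6.39 ± 0.16 (SD, n = 3 each) differed 1.93-fold (log2 difference 0.94 ± 0.16 SE, adjusted p = 0.0431). The differences on the 2 probe sets were 0.10 apart. Both read the same 6 RNA samples and are not independent replicates of each other. In the array maker's naming, the ending _x_at marks a probe set with probes that may also match other transcripts, which does not apply to 1437029_at.

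The third Tacr3 probe set, 1450278_at, lay below the filter, at 3.41, 3.31 and 3.71 in controls and 3.82, 3.44 and 3.80 in ZnR mice. These values overlapped, with a difference of 0.21 (adjusted p = 0.625 when tested with no filter). The size of the Tacr3 rise therefore rests on the 2 brighter probe sets.

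Among the 117 probe sets that rose, 1440803_x_at was 15th and 1437029_at 24th by the size of the difference. A 2-fold or larger difference with ZnR higher, whatever its p, was reached by 0.177% of probe sets tested, and of the 7 only by 1440803_x_at. An exact permutation test over the 6 mice gave p = 0.1 (2-sided) for each of these 2 probe sets, which is the smallest p that 3 mice against 3 can give. The same exact permutation test gave p = 0.2 for Tac1 and p = 1 for Tac2.

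**Figure D2:**
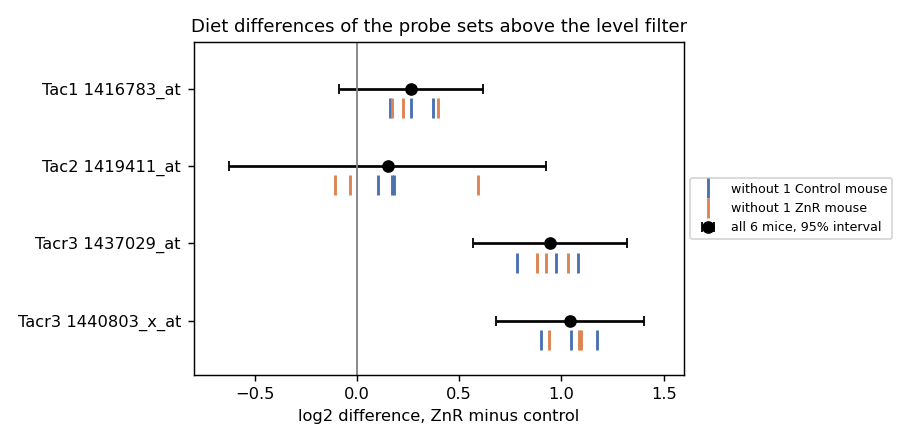
Log2 difference, ZnR minus control (horizontal axis), of the 4 probe sets above the level filter, with the 95% interval of the limma fit over 6 mice (black) and the differences after leaving out 1 control mouse (blue ticks) or 1 ZnR mouse (orange ticks). The ticks of Tacr3 lie between 0.78 and 1.17, those of Tac1 between 0.16 and 0.40, and those of Tac2 on both sides of 0.

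The Tacr3 call was lost in most fits with 5 mice, while the size of the difference changed little. On 1440803_x_at the difference stayed between 0.90 and 1.17 when each mouse was left out, but it passed in 1 of 6 such fits, that without control mouse 9 (1.17, adjusted p = 0.0407). Leaving out control mouse 1 gave 0.90 (adjusted p = 0.0585) and leaving out control mouse 5 gave 1.05 (0.119). Among the ZnR mice, the fit lacking mouse 3 gave 1.09 (0.0944), that lacking mouse 7 gave 0.94 (0.0751) and that lacking mouse 11 gave 1.09 (0.0863). On 1437029_at none of the 6 such fits passed, with the lowest adjusted p without control mouse 9 (0.0546) and the highest without control mouse 5 (0.141), and differences of 0.78 to 1.08. Within the low-18S pair 1440803_x_at differed by 1.23 and between the other mice by 0.95, and with that pair as a block it passed (adjusted p = 0.0243). The split was wider on 1437029_at, at 1.32 and 0.76, and it passed with the block (adjusted p = 0.0358). Without the pair neither passed (adjusted p = 0.124 for 1440803_x_at and 0.141 for 1437029_at).

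The receptor and the ligands can be set against each other within each mouse. The rise of Tacr3 (1440803_x_at) exceeded the difference of Tac1 by 0.78 log2 units and that of Tac2 by 0.89, and in both cases the within-mouse differences of the ZnR mice were all above those of the controls. The exact permutation test gave p = 0.1 for each (2-sided), the smallest p possible with 3 mice against 3, so this test could not have passed and says nothing on whether receptor and ligands changed unequally. These 2 pairs were chosen after the values were seen.

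The wider pathway was described with 4 lists, each gene by its brightest probe set. None of the 27 genes above the filter passed the threshold over all probe sets in limma, against 0.655% of 11749 genes that rose and 1.268% that fell, and 6 of them (22.2%) had an unadjusted p under 0.05, against 18.8% of all 11749 genes. The count of 0 changed with the processing. Ece2 passed after renewed quantile normalization (adjusted p = 0.0476) and with array weights (0.0202), Prkcd with array weights (0.0404) and Prkce with an intensity trend in the moderation (0.0493). The median difference over all genes was 0.03.

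Peptide precursors such as those of Tac1 and Tac2 are cut by prohormone convertases, trimmed by carboxypeptidases and amidated by Pam. Of 7 listed genes of this processing, 6 were above the filter, 3 of them higher and 3 lower on average, with a median difference of -0.01 and none passing. The carboxypeptidase gene Cpd measured -0.17 ± 0.09 (adjusted p = 0.412) and Pcsk1n, which encodes an inhibitor of the convertase of Pcsk1, 0.15 ± 0.11 (adjusted p = 0.522; SE). The list mean lay between 10.25 and 10.35 in controls and between 10.25 and 10.30 in ZnR mice, so the groups overlapped.

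Tachykinins are broken down by peptidases, only some of which act at the cell surface. Of 7 listed peptidase genes 6 were above the filter, 4 higher and 2 lower on average, with a median of 0.10 and none passing. Ece2, which encodes an endothelin-converting enzyme, came closest. It read 5.38, 5.54 and 5.44 in control mice 1, 5 and 9 and 6.17, 5.85 and 6.02 in ZnR mice 3, 7 and 11. Those groups did not overlap, and the difference was 0.56 ± 0.11 (SE, adjusted p = 0.0538), while its other probe set above the filter differed by 0.20 (adjusted p = 0.531). Mme, the gene of neprilysin, the best known substance P-degrading enzyme, measured 0.37 ± 0.15 (adjusted p = 0.268), with control mouse 1 at 8.46 level with ZnR mouse 7 at 8.46.

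The signalling side gave a similar count. Of 14 listed genes of the Gq and phospholipase C cascade 10 were above the filter, 3 higher and 7 lower on average, with a median of -0.07 and none passing. Gnaq, which encodes the Gq alpha subunit, differed by -0.03 ± 0.08 (adjusted p = 0.872). The largest difference was that of the protein kinase C gene Prkcd. It read 6.99, 8.20 and 8.77 in controls and 9.40, 9.05 and 9.57 in ZnR mice, with no overlap and a difference of 1.36 ± 0.40 (SE, adjusted p = 0.150). The controls differed from each other by more than the ZnR mice did, and the difference was 2.40 in the low-18S pair but 0.83 among the other mice. The epsilon kinase gene Prkce measured -0.26 ± 0.09 (adjusted p = 0.188). Of 7 listed genes of receptor kinases and arrestins, which end signalling of active receptors, 5 were above the filter, 3 higher and 2 lower, with a median of 0.00021. Grk5 measured 0.30 ± 0.12 (adjusted p = 0.277) and Grk3 -0.25 ± 0.12 (adjusted p = 0.317).

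**Figure D3:**
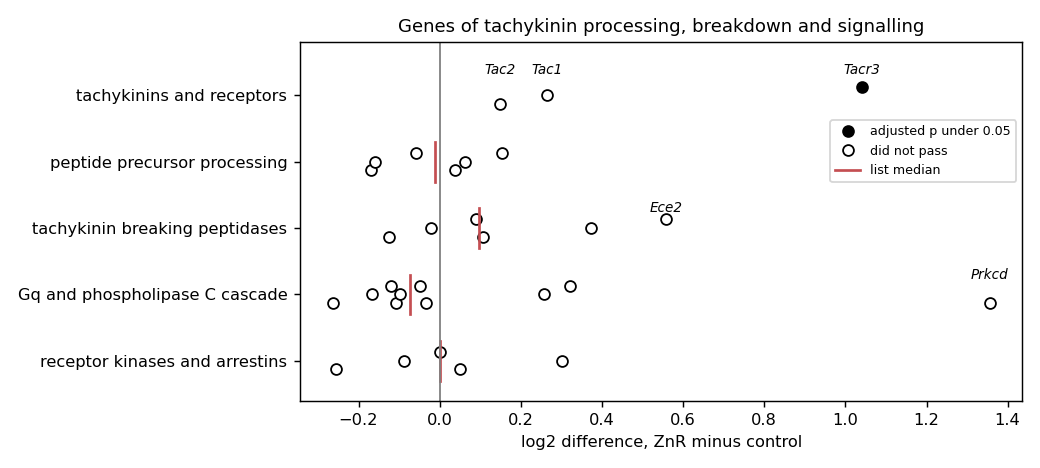
Log2 difference, ZnR minus control (horizontal axis), of each gene above the level filter in 4 pathway lists and of Tac1, Tac2 and Tacr3 (top row), 1 point per gene, with a red line at each list's median. A filled point marks an adjusted p under 0.05, which Tacr3 alone has among the genes plotted, and the vertical position within a row has no meaning.

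Some markers of cells that express these genes, or that could have entered the dissection, moved with the diet, and their part in the Tacr3 result was not tested. Calls of the single genes named from here on also depended on the mice. Of the 15 that passed with all mice, 4 passed without control mouse 1, 0 without control mouse 5 and 4 without control mouse 9. Leaving out ZnR mouse 3, 7 or 11 left 1, 5 or 2 of them past the threshold. In bulk tissue, fewer cells of a type and less RNA per cell cannot be told apart. Markers of septal and ventral forebrain neurons were above the filter for 6 of 6 genes, and all 6 were higher on average in ZnR mice. The LIM homeobox gene Isl1 (1.13 ± 0.14 SE, adjusted p = 0.0214) and the peptidase gene Ecel1 (1.18 ± 0.18, adjusted p = 0.0338) rose, and 4 did not pass. Their list mean was 6.73, 7.24 and 7.69 in control mice 1, 5 and 9, and 8.12, 8.19 and 8.17 in ZnR mice 3, 7 and 11. It differed by 1.39 in the low-18S pair and by 0.71 among the other mice. Every ZnR mouse lay above every control, as for Tacr3. This was not particular to the septal list. It held as well for the list means of ependyma and choroid plexus, astrocytes and both striatal pathways, given below. The septal markers ranged from Zic4, which read 4.01 in control mouse 1, just above the filter, to Zic1. Zic1, a transcription factor gene of septum, read between 10.89 and 12.27. Its groups overlapped, with control mouse 9 at 12.01 above ZnR mouse 3 at 11.94 (adjusted p = 0.268).

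Genes of cells that line the ventricles moved in the same direction. For ependyma and choroid plexus 5 of 7 genes were above the filter and all 5 were higher on average, of which Tmem212 (1.44 ± 0.23 SE, adjusted p = 0.0374) and Clic6 (1.53 ± 0.26 SE, adjusted p = 0.0433) rose. Their list mean was 4.18 to 5.27 in controls and 5.88 to 6.17 in ZnR mice, while the choroid plexus genes Folr1 and Kcnj13 were below the filter. Among cholinergic neuron markers 1 of 5 genes was above the filter, the transcription factor gene Lhx8, with 5.55 to 6.96 in controls and 7.39 to 7.95 in ZnR mice (1.56 ± 0.36 SE, adjusted p = 0.0828). Chat, the gene of the enzyme that makes acetylcholine, lay between 2.93 and 3.11 in all mice. The choline transporter gene Slc5a7 (3.42 to 3.66 in controls, 3.90 to 4.27 in ZnR mice) and the vesicular acetylcholine transporter gene Slc18a3 (3.33 to 3.39 and 3.73 to 3.87) were also below the filter, with every ZnR mouse above every control. At such levels the array gives little measure of a diet difference. Among all probe sets tested 13.1% had no overlap with ZnR higher. Astrocyte markers had a list mean of 9.38 to 9.47 in controls and 9.73 to 9.79 in ZnR mice, with 6 of 6 genes above the filter and higher on average, and Gfap rose (0.79 ± 0.10 SE, adjusted p = 0.0214). The astrocyte mean differed by 0.35 in the low-18S pair and by 0.32 among the other mice.

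Cortical excitatory neuron markers moved the other way, and 5 of the 6 above the filter fell. Nrn1 fell by 1.27, Slc17a7 by 1.08, Tbr1 by 1.02, Neurod2 by 0.84 and Neurod6 by 0.83 on the log2 scale (limma adjusted p from 0.00624 to 0.0497). Tbr1 did not pass with robust eBayes (adjusted p = 0.0530). The mean of this list differed by -1.12 in the low-18S pair and by -0.80 among the other mice, and Tbr1 by -1.62 and -0.73. Tacr3 was thus higher in the same arrays in which these genes were lower.

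For Tac1, the direct pathway neurons of the striatum are the nearest marker list. All 5 of its genes were above the filter and on average higher in ZnR mice. Chrm4 lay near the filter, at 3.996 in control mouse 9 and 3.92 in ZnR mouse 7, and reached it only with mice of both diets together. The mean of the list stood at 7.93, 7.83 and 7.65 in control mice 1, 5 and 9 and 8.57, 8.42 and 8.16 in ZnR mice 3, 7 and 11. Of these genes, Isl1 rose, which the septal list also holds, and 4 did not pass. Drd1, the D1 receptor gene, measured 0.48 ± 0.14 (SE, adjusted p = 0.140), beside 0.26 ± 0.15 for Tac1. Indirect pathway markers, which mark striatal neurons not known for Tac1, had 3 of 5 genes above the filter, with a list mean of 10.38 to 10.72 in controls and 11.08 to 11.29 in ZnR mice. Of these Gpr6 rose (0.58 ± 0.08 SE, adjusted p = 0.0275) and Drd2 rose (0.89 ± 0.16 SE, adjusted p = 0.0461). Markers of parvalbumin interneurons, some of which are known to express Tac1, had 3 of 4 genes above the filter and none passing, with a list mean of 5.30 to 5.89 in controls and 5.46 to 5.71 in ZnR mice. Pvalb measured -0.70 ± 0.28 (SE, adjusted p = 0.255), with -0.15 in the low-18S pair and -0.98 among the other mice. It passed as lower without control mouse 1 (-1.05, adjusted p = 0.0402) and with array weights (adjusted p = 0.0331). In the same list Syt2 went the other way (0.55, adjusted p = 0.324), and Cox6a2 measured -0.12 (adjusted p = 0.678).

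For Tac2, which is known from cortical interneurons that make the peptide VIP, the marker list did not follow the gene. Of 4 listed genes 3 were above the filter and all 3 were lower on average. Only Vip passed, while Calb2 measured -0.22 (limma adjusted p = 0.541) and Prox1 -0.03 (adjusted p = 0.914). Vip itself fell from 9.79 ± 0.12 to 8.79 ± 0.19 (SD, n = 3 each, limma adjusted p = 0.0208), with 9.78, 9.67 and 9.91 in control mice 1, 5 and 9 and 8.60, 8.98 and 8.78 in ZnR mice 3, 7 and 11. The mice with the highest Tac2, ZnR 3 and ZnR 7, therefore had less Vip than every control. For Tacr1, known from interneurons with SST and NOS1, all 5 markers were above the filter and none passed, with a list mean of 7.83 to 7.95 in controls and 7.71 to 7.89 in ZnR mice. Npy measured -0.44 ± 0.10 (SE, adjusted p = 0.0810) and Nos1 0.20 ± 0.13 (adjusted p = 0.489), so markers of this class were read on the array while Tacr1 was near the floor.

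**Figure D4:**
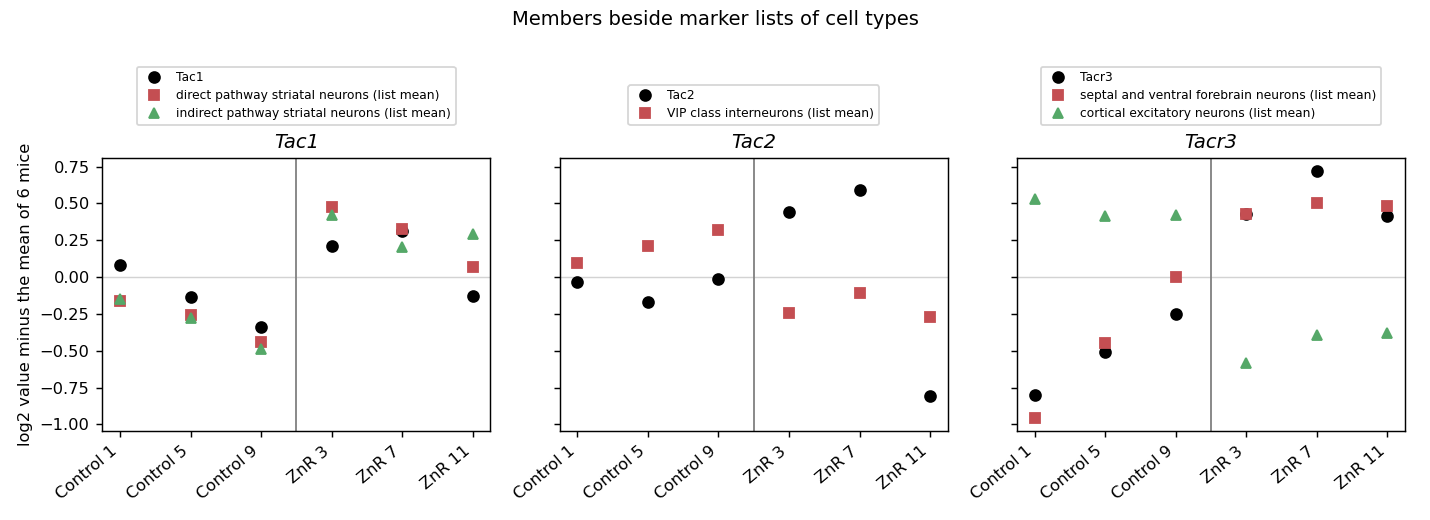
Log2 value of Tac1, Tac2 and Tacr3 (black circles) and mean log2 value of marker lists (coloured symbols), each minus its own mean over the 6 mice (vertical axis), by mouse (horizontal axis, controls left of the grey line). Tacr3 and the septal and ventral forebrain list are lowest in control mouse 1 and above the controls in all ZnR mice, the cortical excitatory list shows the reverse, and Tac2 does not follow the VIP list. The ependyma and astrocyte lists, not plotted here, also have all ZnR mice above all controls.

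The genes whose profile over the 6 arrays was most like each member were taken from the genes above the filter with an SD over arrays of at least 0.3, by Pearson's r over 6 arrays. These correlations are a description, since the arrays share the diet difference. For Tacr3 (1440803_x_at) the nearest were B3gnt5, a glycosyltransferase gene (r = 0.997), Dlk1, which encodes a membrane protein related to Notch ligands (r = 0.997), Hap1, which encodes a huntingtin-associated protein (r = 0.996), and Spag6l, a gene of motile cilia (r = 0.995). Such profiles were common, as 157 of 1079 genes had an r over 0.9 with Tacr3. Dlk1 rose (0.90 ± 0.13 SE, adjusted p = 0.0279), with 7.75, 7.99 and 8.13 in control mice 1, 5 and 9 and 8.81, 9.04 and 8.72 in ZnR mice 3, 7 and 11. Its second probe set rose by 0.89 (adjusted p = 0.0431). B3gnt5 rose as well (0.60 ± 0.11 SE, adjusted p = 0.0469), but not with robust eBayes (adjusted p = 0.0507), while Hap1 measured 0.62 ± 0.12 (adjusted p = 0.0514) and Spag6l 0.59 ± 0.11 (adjusted p = 0.0560).

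For Tac1 the nearest profiles were the axon guidance gene Ntn1 (r = 0.958), the RNA export gene Nxt1 (r = 0.957), the serotonin receptor gene Htr4 (r = 0.954) and Pdyn (r = 0.945), and 13 of 1080 genes had an r over 0.9. Htr4 measured 0.76 ± 0.23 (SE, adjusted p = 0.158), and none of these 4 passed the test for diet. For Tac2 no gene had an r over 0.9. The nearest were the neuropeptide precursor gene Cartpt (r = 0.884), the lipid transfer gene Stard5 (r = 0.874), Pgam2 (r = 0.873) and Fcor (r = 0.854). Cartpt read 9.10, 9.27 and 8.98 in control mice 1, 5 and 9 and 9.71, 10.15 and 8.79 in ZnR mice 3, 7 and 11. It thus had ZnR mouse 11 below every control, as Tac2 did.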

How the data were processed

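Total RNA (500 ng per sample) was labelled with the Affymetrix 3′ IVT Express kit, per the labels' protocols. The authors deposited log2 expression values per probe set. The submitters' processing notes list the tools R 2.15.1 and GCRMA 2.28.0. GCRMA corrects background by probe sequence and normalizes between arrays, which compresses values near the floor. Values were used as deposited. Of 45101 probe sets, 64 array controls were left out, and 25381 exceeded log2 4 on at least 3 arrays. Genes were named from the platform annotation, with symbols updated by Entrez identifier.

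Diets were compared with lmFit and eBayes of limma 3.58.1 under R 4.3.3, as a 2-sided test adjusted by Benjamini-Hochberg over all probe sets tested. The fit was tested on simulated data. Exact permutation tests used scipy 1.17.1. A gene was represented by its brightest probe set above the filter. The members and lists were chosen with earlier results of these data known. Named were all probe sets of the members, Tac4 and Tacr2; pathway genes past the threshold and the 2 with the smallest p in each list; markers past the threshold and the 1 with the smallest p in each list; and the 4 most similar profiles per member. Other genes were named as background to a list, after their values were seen. Alternatives covered the filter, normalization, moderation, array weights, the low-18S pair and each mouse left out.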

Additional observations from a re-analysis of the deposited data

How the results depend on the processing

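No paired analysis was possible because the diets share no mouse numbers. With all 6 mice, both Tacr3 probe sets passed under all 8 alternatives of filter, normalization, moderation, array weights and block, and Tac1 and Tac2 passed under none of them. At the filter of log2 6, 1437029_at was tested only through the ZnR mice. There 1440803_x_at needed them too, as control mouse 9 (6.19) was its only control above 6. Passing at that filter is therefore no added support for either probe set. The fit with array weights gave control mouse 5 a weight of 6.57, against 0.51 to 0.99 for the other arrays. Its control mean thus rests mostly on that mouse, without which 1 probe set of the whole array passed. Passing with array weights is therefore weak support, for Tacr3 and for every other gene said to pass with them. The number of probe sets past the threshold was 916 with an intensity trend, 2003 with array weights, 1 without the low-18S pair and 1 to 109 with 1 mouse left out. The number of Tac1, Tac2, Tacr1 and Tacr3 probe sets past it was 2 in all 8 alternatives with 6 mice, 0 without the low-18S pair and 0 to 1 with 1 mouse left out. Without that pair Tacr3 measured 0.95 on 1440803_x_at (adjusted p = 0.124) and 0.76 on 1437029_at (adjusted p = 0.141), and Tac2 measured -0.015, a reversed direction. With 1 mouse left out, Tacr3 measured 0.90 to 1.17 and Tac2 -0.11 to 0.59, reversing without ZnR mouse 3 (-0.03) and ZnR mouse 7 (-0.11). These fits have fewer mice. Fcor, -0.06 with all mice, measured 0.04 when control mouse 1 was left out, 0.21 when ZnR mouse 11 was and -0.20 when ZnR mouse 7 was. The other 35 named genes, of 36 besides the tachykinin and receptor genes, kept their direction in every alternative that tested them, though not their calls. Besides the changes given with the genes above, array weights also brought past the threshold Npy (adjusted p = 0.0203), Lhx8 (0.0111), Htr4 (0.0415), Hap1 (0.0111) and Spag6l (0.0120). With an intensity trend Npy, Lhx8, Hap1 and Spag6l passed as well, Hap1 passed in 6 of the 8 alternatives with all mice, Spag6l passed with the block (0.0474) and Lhx8 passed without control mouse 9 (2.01, adjusted p = 0.0244). With all probe sets of a list in place of 1 per gene, the median was -0.11 for precursor processing and -0.09 for receptor kinases and arrestins. Probe sets near the floor, as for Tacr1, limit what can be said of them.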
